A study of Mus musculus with 31 samples.

Results

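The transcripts of 10 ligands and receptors of the transforming growth factor beta (TGF-β) superfamily were followed in mouse natural killer (NK) cells, cytotoxic lymphocytes of the innate immune system. The members were named by gene symbol, with no threshold on their values but with earlier results of these data known, and mapped to the Entrez identifiers of the count table, which held 27179 genes. All 10 were found: the ligands Tgfb1 and Tgfb3, the type II receptors Tgfbr2 and Bmpr2, the type I receptors Tgfbr1, Acvr1b, Acvr1, Acvrl1 and Bmpr1a, and the co-receptor Tgfbr3. The 31 libraries came from wild-type cells (WT), cells lacking the type II TGF-β receptor (TGFBRII KO) and cells lacking the cytokine-signalling suppressor CIS (CIS KO, gene Cish). Each genotype was measured unstimulated, after 4 h with the cytokine TGFB1 and after 24 h with TGFB1. There were 4 WT libraries unstimulated, 2 at 4 h and 4 at 24 h, 3 TGFBRII KO libraries in each condition and 4 CIS KO libraries in each condition.

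No source used here gives the Cre line, promoter or exons behind either knockout, or the age and sex of the mice. The sample titles give no time in culture for the unstimulated cells, so TGFB1 and time in culture cannot be told apart within a genotype. The libraries are numbered as biological replicates, but nothing says that they came from separate animals or cultures, so p-values measure the spread between these samples.

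TGF-β ligands are secreted as latent precursors and, once freed, bind a type II serine/threonine kinase receptor, which then recruits and phosphorylates a type I receptor. The type I receptor passes the signal to SMAD proteins: TGFBR1 and ACVR1B (the activin receptor ALK4) act on SMAD2 and SMAD3, whereas ACVR1, ACVRL1 and BMPR1A act on the SMADs of bone morphogenetic protein (BMP) signalling. TGF-β is known as a restraint on NK cell activity, and it can move NK cells towards features of tissue-resident innate lymphocytes.

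Library totals ran from 297561 (WT at 4 h, replicate 1) to 1403005 counts, with a median of 736193, so a transcript at 1 CPM (counts scaled to a common library total) was seen as about 1 read or none. All 9 NK markers examined passed the count filter, with a summed level of 2290 to 5230 CPM per library. Of these 9, 3 were called lower at 24 h in WT cells, where 11.5% of all genes tested were called lower. In CIS KO cells 5 were called lower at 24 h (list median -0.47), against 11.7% of all genes. In TGFBRII KO cells 0 were, where 0.0195% of all genes were called in either direction. In unstimulated CIS KO cells 2 were called higher than in WT cells, against 3.19% of all genes. Of 5 endothelial markers Cdh5, Tie1 and Emcn had 0 counts in every library, and of 5 platelet markers Pf4, Ppbp and Gp9 did, while the 5 summed to at most 8.63 CPM, mostly Itga2b. Of 7 macrophage markers C1qa, C1qb and C1qc had 0 counts and the list summed to 4.32 to 21.7 CPM, mostly Cd68, and 5 stromal markers summed to at most 8.63 CPM. Summed T cell markers lay between 182 and 319 CPM, mostly Cd3g, Cd3d and Trac, and summed B cell markers at 4.99 CPM or lower. Of the 4 T cell markers tested 2 were called lower in TGFBRII KO cells at 4 h, where 3.45% of all genes were. From 4 h to 24 h 2 were called higher in these cells, against 4.3% of all genes. In WT cells at 24 h 1 was called higher and 1 lower (9.63% and 11.5% of all genes). In CIS KO cells 1 was called higher at 4 h (7.76%) and 1 lower from 4 h to 24 h (7.7%). Against WT cells at 24 h, 1 was called higher in TGFBRII KO cells (11.5%). The targeted gene Cish was 2.66 ± 0.17 lower (log2 ± SE) in unstimulated CIS KO than in WT cells. In these bulk libraries, fewer cells that express a transcript and less RNA per cell cannot be told apart. The genotypes also differed in sex-linked RNA: Xist lay between 91.1 and 222 CPM in WT, between 12.6 and 131 CPM in TGFBRII KO and between 0 and 5.22 CPM in CIS KO libraries, and 4 Y-linked genes summed to 1.38 to 124, 187 to 451 and 392 to 558 CPM. Its part in the differences between genotypes was not tested.

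The promoter windows of the 4 members that both passed the count filter and were found in the RefSeq table (build GRCm38.p6, the mm10 assembly) are printed because the data turn on the levels of these transcripts after a SMAD-activating ligand. Each line gives the 250 bases before the annotated start, 5′ to 3′ on the gene's strand, and capitals mark a SMAD-type motif found on either strand. Tgfb1 is at chr7:25687002-25705077, Tgfbr2 at chr9:116087695-116175363, Tgfbr1 at chr4:47353222-47414926 and Acvr1 at chr2:58446438-58566828.
Tgfb1, chr7:25686752-25687001, plus strand: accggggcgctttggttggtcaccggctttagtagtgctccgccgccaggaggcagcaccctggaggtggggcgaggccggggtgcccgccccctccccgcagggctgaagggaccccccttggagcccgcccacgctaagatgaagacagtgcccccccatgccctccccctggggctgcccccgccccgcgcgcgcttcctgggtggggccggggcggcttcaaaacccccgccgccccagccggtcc
Tgfbr2, chr9:116175364-116175613, minus strand: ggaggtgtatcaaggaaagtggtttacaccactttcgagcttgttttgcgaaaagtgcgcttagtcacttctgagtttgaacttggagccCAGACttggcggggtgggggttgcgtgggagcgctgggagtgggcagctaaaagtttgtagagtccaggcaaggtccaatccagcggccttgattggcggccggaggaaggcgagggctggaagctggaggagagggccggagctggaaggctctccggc
Tgfbr1, chr4:47352972-47353221, plus strand: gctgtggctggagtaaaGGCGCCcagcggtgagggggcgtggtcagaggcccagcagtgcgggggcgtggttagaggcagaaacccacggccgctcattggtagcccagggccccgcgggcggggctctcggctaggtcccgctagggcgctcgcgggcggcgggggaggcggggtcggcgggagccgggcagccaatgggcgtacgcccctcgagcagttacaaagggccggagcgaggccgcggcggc
Acvr1, chr2:58566829-58567078, minus strand: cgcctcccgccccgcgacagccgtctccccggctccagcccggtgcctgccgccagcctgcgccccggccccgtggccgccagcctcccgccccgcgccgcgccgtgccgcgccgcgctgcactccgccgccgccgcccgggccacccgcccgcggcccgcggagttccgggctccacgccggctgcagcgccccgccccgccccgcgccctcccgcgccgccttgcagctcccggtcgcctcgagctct

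The motifs searched were the SMAD elements CAGAC, GTCTAGAC and GGCGCC, the AP-1 element TGANTCA and the cyclic AMP element TGACGTCA, on both strands. The Tgfbr2 window held 1 CAGAC, which 42.2% of all 32851 windows of this length held, and the Tgfbr1 window held 1 GGCGCC, which 9.59% of all windows held. The windows of Tgfb1 and Acvr1 held none of the 5, and their GC content was 75.2% and 85.6% against a median of 52.4% over all windows. GTCTAGAC, TGANTCA and TGACGTCA were in none of these 4 windows and in 0.167%, 6.75% and 1.55% of all windows. A second annotated start of Tgfbr1 (window chr4:47385966-47386215) held 1 CAGAC. In all, 7 of the 10 members matched the table; Tgfb3, Tgfbr3 and Acvrl1 are named only.

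To compare levels between genes, CPM was divided by exon length in kilobases. On this scale, averaged over the 31 libraries, Tgfbr2 stood highest at 33.4 CPM per kb. Tgfb3 followed at 18.8, Tgfbr1 at 15.8, Tgfb1 at 4.19, Acvrl1 at 2.73 and Acvr1 at 1.96 CPM per kb. Tgfbr3, Bmpr1a, Acvr1b and Bmpr2 were below 1, at 0.644, 0.393, 0.318 and 0.216 CPM per kb. The order was not the same in every group: Tgfb3 was below Tgfbr1 in all 3 unstimulated groups (4.74 against 18.4 CPM per kb in WT) and above it in TGFB1-treated WT and CIS KO cells (42.2 against 21.4 in WT at 24 h). In WT at 24 h the mean level of Tgfb3 also passed that of Tgfbr2, its own signalling receptor, at 35.0 CPM per kb. The order was the same in CIS KO at 24 h (40.65 against 37.31 CPM per kb). That order depends on the division by length. In CPM Tgfb3 was at 142.7 and Tgfbr2 at 286.2 in WT at 24 h, and at 137.5 and 305.5 in CIS KO at 24 h. The TGF-β receptors Tgfbr2 and Tgfbr1 were the main receptor transcripts of the set, and none of the other receptors among the 10 passed 2.73 CPM per kb on average.

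**Figure D1:**
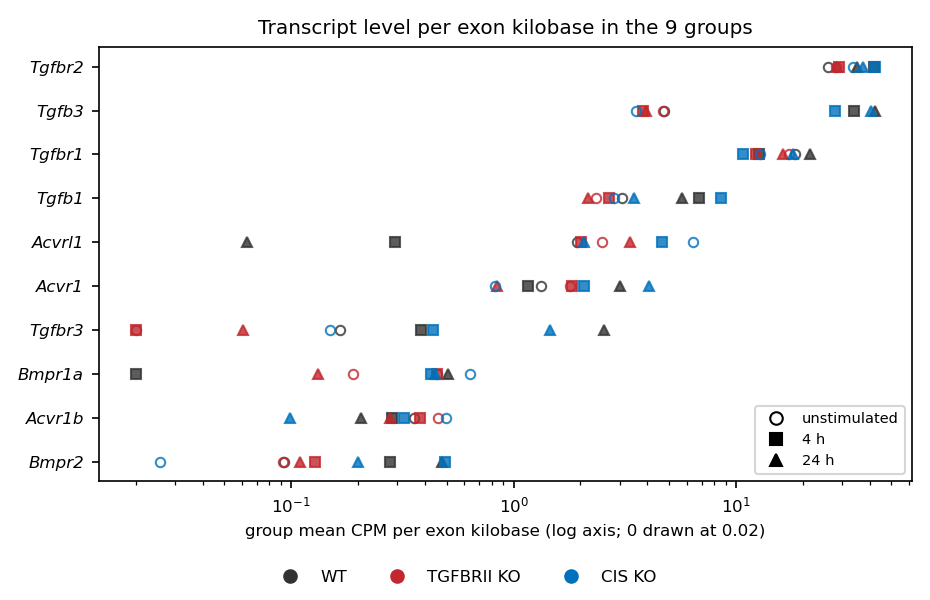
Group mean level of each of the 10 transcripts in CPM per exon kilobase on a log axis, with 1 marker per group (colour, genotype; shape, time with TGFB1); a mean of 0 is drawn at 0.02. Tgfbr2 stays between 26.0 and 42.05 in all 9 groups, whereas Tgfb3 spans 3.56 to 42.2 and Acvrl1 0.0633 to 6.40.

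The count filter kept 7 of the 10 members among the 10275 genes tested, and Bmpr2, Acvr1b and Bmpr1a, with 89, 32 and 55 counts summed over the 31 libraries, were not tested. A member with low counts enters the test only if some group is high enough, so the counts of called members are given as descriptions. Genes were called with edgeR's quasi-likelihood test at an adjusted p under 0.05 over all genes tested, and changes are log2 ± SE. Among WT libraries 3 of the 7 were called at 4 h against unstimulated cells, all higher, where 11.9% of all genes tested were called. At 24 h 6 of the 7 were called, 5 higher and 1 lower, against 21.1% of all genes. Among TGFBRII KO libraries 0 of the 7 were called by edgeR or by DESeq2 at 4 h (1 at an unadjusted p under 0.05, Tgfbr1) or at 24 h (0 at an unadjusted p under 0.05), where 8.02% and 0.0195% of all genes were called by edgeR. From 4 h to 24 h 8.17% of all genes were called in TGFBRII KO cells, and the cause of these shares was not tested. Among CIS KO libraries 2 of the 7 were called at 4 h and 5 at 24 h, against 14.1% and 24% of all genes.

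**Figure D2:**
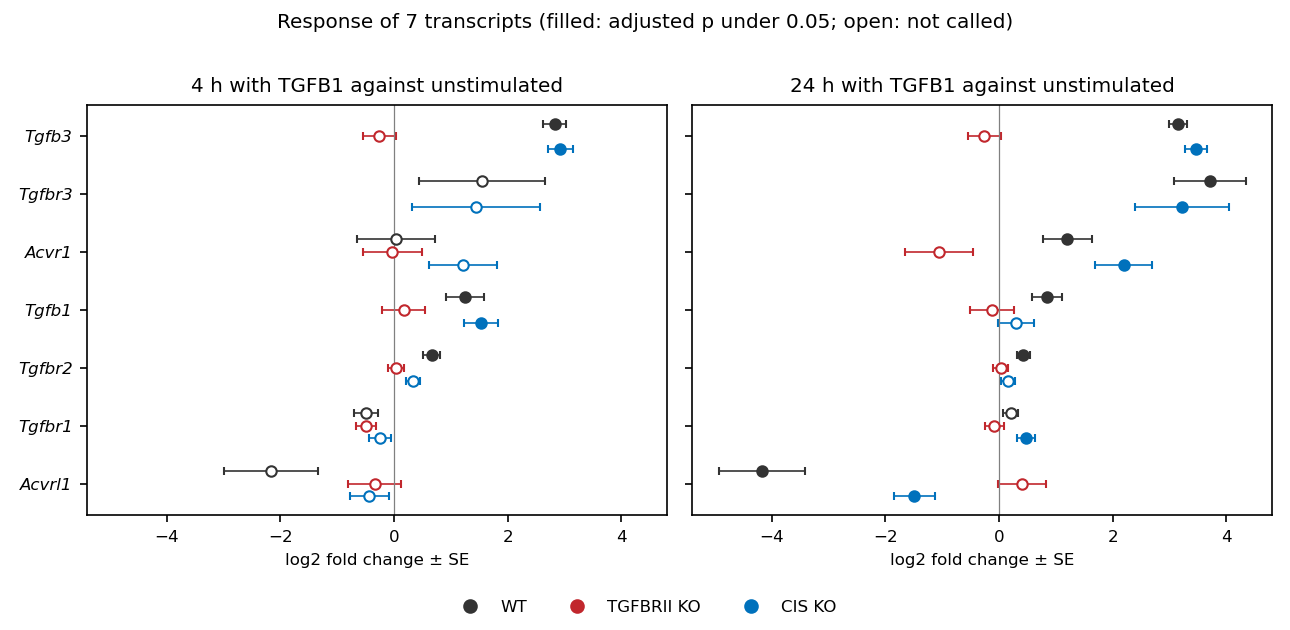
Log2 fold change ± SE of the 7 tested transcripts after 4 h (left) and 24 h (right) with TGFB1 against unstimulated cells of the same genotype; filled points have an adjusted p under 0.05. Tgfb3 stands near 3 in WT and CIS KO cells and near 0 in TGFBRII KO cells. Tgfbr3 in TGFBRII KO cells had at most 1 count per group and is not drawn, and the Acvrl1 value of WT cells rests on groups with 1 or 2 counts.

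Among the ligands, Tgfb3 rose the most. The gene (chr12:86056743-86079041) encodes TGF-β3, one of the 3 mammalian TGF-β isoforms, known from palate and lung development and from helper T cells that make it. For WT cells it was at 8.90, 20.0, 15.9 and 19.3 CPM unstimulated, at 116.5 and 114.0 CPM after 4 h, and at 163.8, 134.9, 132.6 and 139.5 CPM after 24 h. For CIS KO cells it was at 11.1, 14.8, 9.82 and 12.5 CPM unstimulated, at 90.4, 99.8, 107 and 79.1 CPM after 4 h, and at 145.8, 122.7, 138.8 and 142.8 CPM after 24 h. Every treated library of these genotypes lay above every unstimulated one, and at 24 h the lowest library was above all 4 h libraries in both genotypes.

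For TGFBRII KO cells Tgfb3 was at 15.2, 13.3 and 19.4 CPM unstimulated, at 15.7, 7.20 and 16.0 CPM after 4 h, and at 11.9, 13.8 and 14.3 CPM after 24 h. These libraries overlapped between conditions and lay in the range of unstimulated WT cells or just under it. The rise in WT cells was 7.12-fold at 4 h (log2 2.83 ± 0.21, adjusted p = 3.23e-12) and 8.84-fold at 24 h (3.14 ± 0.16, adjusted p = 1.08e-16). Within CIS KO cells the rise was 7.62-fold at 4 h (2.93 ± 0.21) and 11.0-fold at 24 h (3.46 ± 0.19), and 24 h exceeded 4 h by 0.53 ± 0.13 (adjusted p = 0.00459). The log2 response of TGFBRII KO cells minus that of WT cells was -3.09 ± 0.36 at 4 h and -3.40 ± 0.35 at 24 h (adjusted p = 7.17e-07 and 6.85e-09), differences for which 7.57% and 10.8% of all genes were called. The responses of CIS KO and WT cells differed by 0.10 ± 0.32 at 4 h and 0.32 ± 0.30 at 24 h, with neither called.

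Tgfb1 encodes TGF-β1, the same ligand that was added to the cultures and the main TGF-β of immune cells. The added protein is not counted, so the values are the cells' own RNA. Within WT cells Tgfb1 was at 17.8, 12.5, 16.8 and 15.2 CPM unstimulated, at 26.3 and 42.6 CPM after 4 h, and at 34.9, 15.1, 26.8 and 38.6 CPM after 24 h. In CIS KO cells it was at 11.1, 14.8, 11.8 and 19.4 CPM unstimulated, at 48.4, 45.2, 39.1 and 39.5 CPM after 4 h, and at 18.4, 22.3, 14.0 and 15.7 CPM after 24 h. Within TGFBRII KO cells all 9 libraries lay between 7.23 and 17.3 CPM, with group means of 11.9, 13.5 and 10.9 CPM. The 4 h libraries of WT and CIS KO cells were all above their unstimulated libraries, while at 24 h both genotypes overlapped with unstimulated cells.

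At 4 h Tgfb1 rose 2.37-fold in WT cells (1.25 ± 0.34, adjusted p = 0.0121) and 2.90-fold in CIS KO cells (1.54 ± 0.30, adjusted p = 0.000314). At 24 h it was 1.80-fold higher in WT cells (0.84 ± 0.27, adjusted p = 0.0226), whereas the change in CIS KO cells was 0.30 ± 0.32 and not called. Among CIS KO libraries the level fell by 1.24 ± 0.26 from 4 h to 24 h (adjusted p = 0.00167). The 24 h responses of the 2 genotypes differed by -0.54 ± 0.43 (CIS KO minus WT, adjusted p = 0.559), so the contrast between them was not called. The log2 response of TGFBRII KO cells minus that of WT cells was -1.08 ± 0.51 at 4 h and -0.97 ± 0.48 at 24 h. Neither difference was called (adjusted p = 0.209 and 0.225). The 4 h call in WT cells rests on 2 libraries: without replicate 4 the change was 0.74 (adjusted p = 0.472), and with a replicate block it was 0.94 (adjusted p = 0.116). The 24 h call in WT cells was lost without replicate 1 (0.72, adjusted p = 0.0828), without replicate 4 (0.67, adjusted p = 0.107), without unstimulated replicate 2 (0.76, adjusted p = 0.0707), with DESeq2 (adjusted p = 0.0537) or in a fit of the compared groups alone (adjusted p = 0.0710).

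Per exon kilobase, Tgfb3 made up 59.3% ± 12.1 (SD, n = 4) of the sum of the 2 ligand transcripts in unstimulated WT cells, 83.4% ± 4.87 (n = 2) at 4 h and 88.2% ± 3.58 (n = 4) at 24 h. For CIS KO cells the share was 56.0% ± 5.16 unstimulated, 76.4% ± 2.93 at 4 h and 92.0% ± 2.01 at 24 h (n = 4 each). The treated libraries of both genotypes lay above all of their unstimulated libraries. In TGFBRII KO cells the share was 67.4% ± 3.83, 58.2% ± 19.1 and 64.7% ± 6.47 (n = 3 each), with overlapping libraries. A two-sided exact permutation test over libraries gave p = 0.0286 for WT cells at 24 h and for CIS KO cells at 4 h and at 24 h, the smallest p that 4 against 4 libraries allow, and p = 0.133 for WT cells at 4 h. Adjusted over the 6 comparisons these became 0.0572 and 0.2, and p was 0.6 and 0.7 in TGFBRII KO cells. The smallest p that the libraries allow was 0.0667 for WT cells at 4 h and 0.1 in TGFBRII KO cells. With these group sizes no adjusted p could fall under 0.05, so the test cannot decide whether the share changed. Not divided by exon length, the Tgfb3 share of counts ran from 33.3% to 61.5% in unstimulated WT libraries and from 78.3% to 89.9% at 24 h. A Tgfb3 majority before TGFB1 thus depends on the lengths used.

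**Figure D3:**
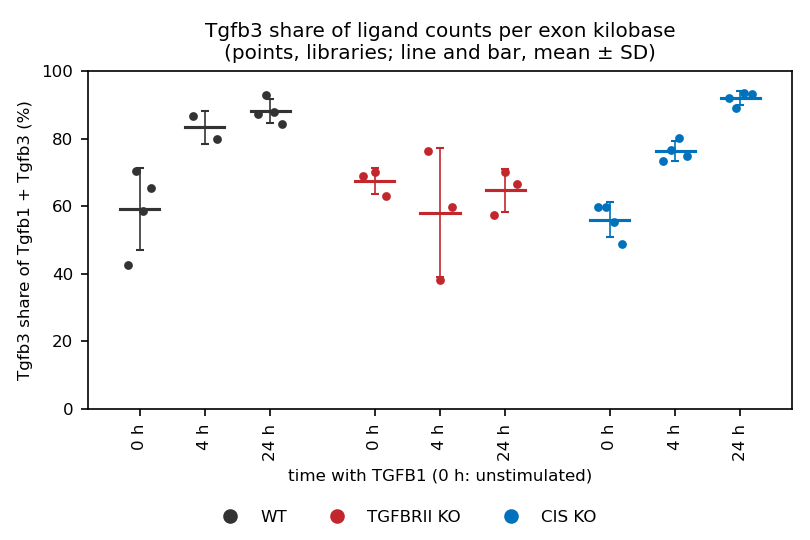
Share of Tgfb3 in the sum of Tgfb1 and Tgfb3 (counts per exon kilobase, percent) in each library, with mean ± SD per group. The 4 CIS KO libraries at 24 h lie between 89.2% and 93.7%, and the 9 TGFBRII KO libraries between 38.3% and 76.4%.

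Of the type II receptors, Tgfbr2 was the abundant one. It encodes TGFBR2, which binds the TGF-β ligands and is the receptor removed in the TGFBRII KO. In WT cells Tgfbr2 was at 250.4, 211, 189.5 and 200.3 CPM unstimulated, at 361 and 319 CPM after 4 h, and at 228, 262, 313 and 341 CPM after 24 h. Within CIS KO cells it was at 295.5, 276, 283 and 240.0 CPM unstimulated, at 318, 349.5, 333.5 and 376 CPM after 4 h, and at 307, 246, 327 and 341 CPM after 24 h. Among TGFBRII KO libraries it was at 230.5, 237 and 221 CPM unstimulated, at 236, 276.5 and 199 CPM after 4 h, and at 231.5, 245 and 225 CPM after 24 h. The treated WT and CIS KO libraries at 4 h were above all unstimulated libraries of their genotype, and at 24 h the groups overlapped.

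Among WT libraries Tgfbr2 rose 1.58-fold at 4 h (0.66 ± 0.15, adjusted p = 0.00293) and 1.34-fold at 24 h (0.43 ± 0.12, adjusted p = 0.00822). The 24 h call was lost without replicate 4 of the 24 h group (0.33, adjusted p = 0.0571). In CIS KO cells the changes were 0.33 ± 0.12 at 4 h (adjusted p = 0.0710) and 0.15 ± 0.12 at 24 h, neither called. Unstimulated CIS KO cells differed from WT by 0.36 ± 0.12 (adjusted p = 0.0671, not called), and the 4 h and 24 h differences were 0.03 ± 0.15 and 0.08 ± 0.12.

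The Tgfbr2 counts of TGFBRII KO cells did not differ from those of unstimulated WT cells beyond the spread (0.11 ± 0.13, 95% interval from -0.15 to 0.38). The count is over the whole gene and takes in exons outside any deleted part, so it checks neither the label nor the deletion. At 4 h TGFBRII KO cells were below WT cells by 0.51 ± 0.16 (adjusted p = 0.0309), a call that was lost in 6 alternatives, among them a fit of the compared groups alone (adjusted p = 0.113) and leaving out either WT library at 4 h (adjusted p = 0.182 and 0.0743). The difference between the 4 h responses of TGFBRII KO and WT cells was -0.62 ± 0.21 (adjusted p = 0.0577), just short of a call. At 24 h it was -0.40 ± 0.18 (adjusted p = 0.179), not called.

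Bmpr2, the type II receptor for BMPs, had 0 to 12 counts per library and was not tested. For WT cells it had 1, 1, 5 and 0 counts unstimulated, 1 and 5 counts at 4 h, and 4, 6, 7 and 8 counts at 24 h. Summed over libraries and scaled to depth, 24 h against unstimulated cells gave 25 against 7 counts, a ratio of 4.15 (95% exact interval 1.74 to 11.4, counting error only). Among CIS KO libraries the sums were 1 count unstimulated, 20 at 4 h and 16 at 24 h, of which 12 came from a single 24 h library. TGFBRII KO cells had 4, 5 and 5 counts in the 3 conditions. With no count filter, edgeR gave Bmpr2 an adjusted p of 0.0202 in WT cells at 24 h and of 0.00176 in CIS KO cells at 4 h.

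**Figure D4:**
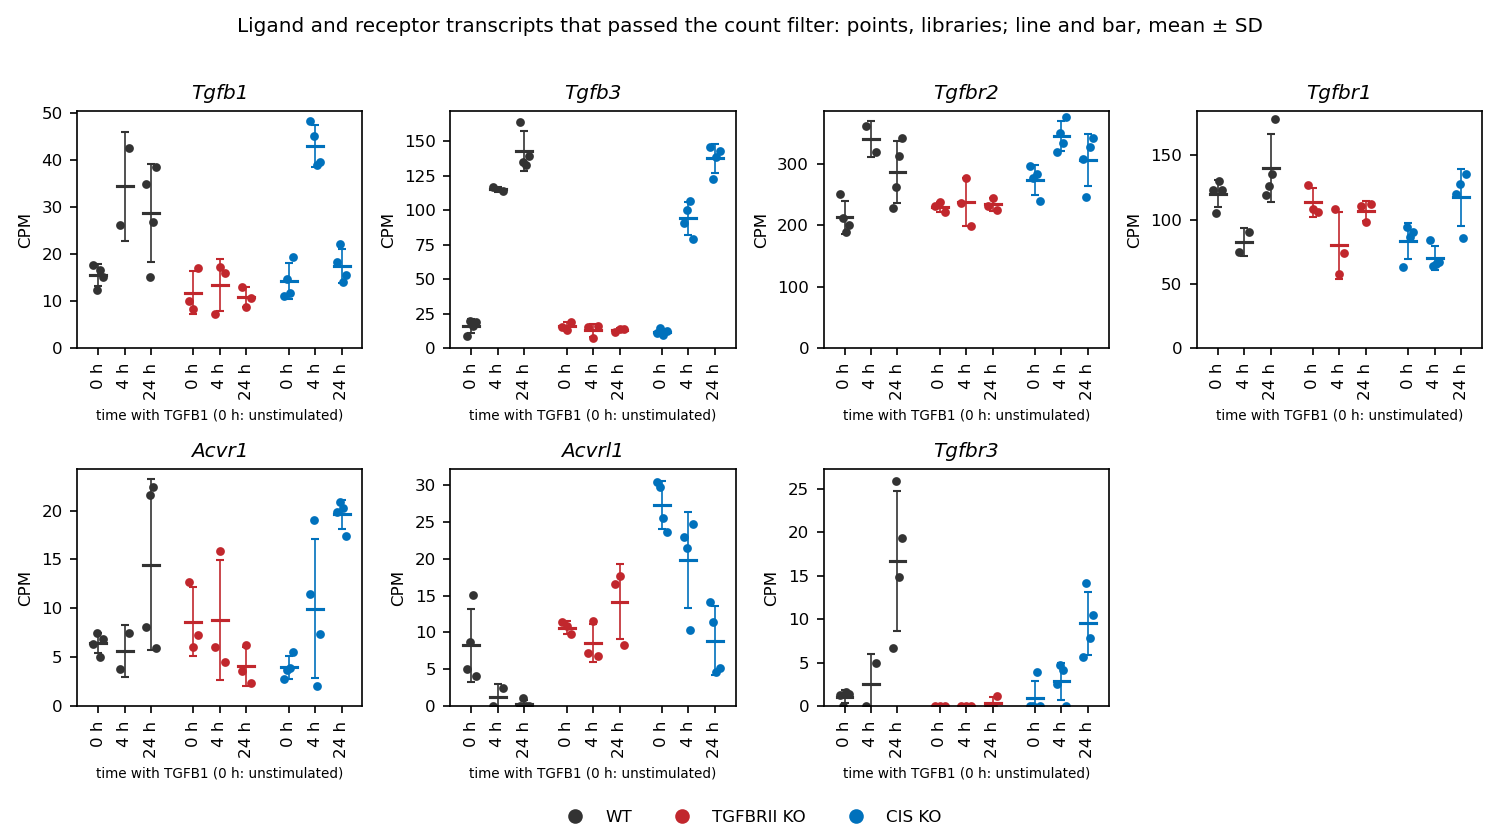
CPM of the 7 tested transcripts in every library (points) with group mean ± SD, by genotype and time with TGFB1 (0 h, unstimulated). The WT and CIS KO panels of Tgfb3 and Tgfbr3 climb with time while the TGFBRII KO points stay low, and Acvrl1 falls from a mean of 27.3 to 8.88 CPM in CIS KO cells.

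Among the type I receptors, Tgfbr1 encodes TGFBR1 (ALK5), the usual signalling partner of TGFBR2. Within WT cells it was at 123, 105, 129.9 and 123 CPM unstimulated, at 75.2 and 90.2 CPM after 4 h, and at 119.5, 126, 136 and 178 CPM after 24 h. For TGFBRII KO cells it was at 127, 108.5 and 106 CPM unstimulated, at 108, 57.6 and 74.3 CPM after 4 h, and at 110.4, 98.0 and 112 CPM after 24 h. For CIS KO cells it was at 63.5, 94.6, 86.4 and 90.2 CPM unstimulated, at 84.1, 64.2, 65.9 and 66.7 CPM after 4 h, and at 120.3, 128, 85.8 and 136 CPM after 24 h. The 4 h group had the lowest mean in all 3 genotypes, at 82.7, 80.1 and 70.2 CPM.

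The 4 h changes of Tgfbr1 against unstimulated cells were -0.49 ± 0.21 in WT, -0.49 ± 0.17 in TGFBRII KO and -0.25 ± 0.19 in CIS KO cells, and none was called (adjusted p = 0.113, 0.0812 and 0.448). From 4 h to 24 h Tgfbr1 rose 1.62-fold in WT cells (0.70 ± 0.21, adjusted p = 0.0315, 1 of the 7 members called where 7.57% of all genes were) and 1.65-fold in CIS KO cells (0.72 ± 0.17, adjusted p = 0.00369, 3 of the 7 called where 15.4% of all genes were). The corresponding difference in TGFBRII KO cells was 0.40 ± 0.18 (adjusted p = 0.169), where edgeR and DESeq2 called 0 of the 7 members, 1 had an unadjusted p under 0.05 and 8.17% of all genes were called by edgeR. Against unstimulated cells Tgfbr1 was 1.39-fold higher at 24 h in CIS KO cells (0.47 ± 0.16, adjusted p = 0.0308) and was not called in WT cells (0.20 ± 0.14). The WT rise from 4 h to 24 h lost its call when either 4 h library was left out (adjusted p = 0.161 and 0.133) or replicate 4 of the 24 h group (adjusted p = 0.0760). The CIS KO call at 24 h was lost without unstimulated replicate 1 (0.37, adjusted p = 0.126) or 3 (adjusted p = 0.0620), without 24 h replicate 2 (adjusted p = 0.122) or 4 (adjusted p = 0.0598), with a depth covariate (0.35, adjusted p = 0.173), with DESeq2 (adjusted p = 0.0767) or with the compared groups alone (adjusted p = 0.0668). Unstimulated CIS KO cells were at -0.50 ± 0.16 against WT (adjusted p = 0.0535, not called).

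Acvrl1 (chr15:101128522-101145336) was the sole member called lower at 24 h than in unstimulated cells, in WT and in CIS KO cells. It encodes ACVRL1 (ALK1), a type I receptor for BMP9 and BMP10 best known from the blood vessel lining, where it can also take part in TGF-β signalling. In WT cells it was at 5.08, 8.74, 15.1 and 4.14 CPM unstimulated, at 0 and 2.51 CPM after 4 h, and at 0, 1.08, 0 and 0 CPM after 24 h. Within CIS KO cells it was at 30.4, 29.7, 25.5 and 23.6 CPM unstimulated, at 22.9, 21.4, 10.3 and 24.7 CPM after 4 h, and at 14.2, 11.5, 4.68 and 5.22 CPM after 24 h. Within TGFBRII KO cells it was at 11.4, 10.9 and 9.72 CPM unstimulated, at 7.23, 11.5 and 6.86 CPM after 4 h, and at 16.6, 17.6 and 8.34 CPM after 24 h. All treated WT libraries and all 24 h CIS KO libraries were below every unstimulated library of their genotype, and the TGFBRII KO groups overlapped.

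Among WT libraries Acvrl1 had 32 counts over the 4 unstimulated libraries and 1 count over the 4 libraries at 24 h, so unstimulated cells were 27.5-fold higher (95% exact interval 4.60 to 1120, counting error only), and the fall at 24 h was called (adjusted p = 7.52e-05). The 2 WT libraries at 4 h had 2 counts between them, a 4.86-fold lower level (1.24 to 41.8) that was not called (adjusted p = 0.0825). In CIS KO cells it fell by 1.49 ± 0.36 at 24 h on the log2 scale (adjusted p = 0.00242), from 57 to 33 counts in deeper libraries, and the change at 4 h was -0.43 ± 0.34. In TGFBRII KO cells the changes were -0.34 ± 0.46 and 0.40 ± 0.42, and the difference of its 24 h response from that of WT cells was called (adjusted p = 0.00044).

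Acvrl1 was also the member that separated CIS KO from WT cells. It was 2.99-fold higher in unstimulated CIS KO cells (1.58 ± 0.36, adjusted p = 0.0118), the sole member of 7 called there, where 6.15% of all genes were called. At 4 h 42 counts in 4 CIS KO libraries stood against 2 counts in 2 WT libraries, a ratio of 10.7 (2.77 to 90.9, adjusted p = 0.0370), and at 24 h 33 counts stood against 1, a ratio of 29.2 (4.89 to 1190, adjusted p = 0.000564). It was again the sole member called at both times, where 0.273% and 3.27% of all genes were. The 4 h call was lost in 8 alternatives, among them without either WT library at 4 h (adjusted p = 0.126 without replicate 1 and 0.455 without replicate 4), without CIS KO replicate 1, 2 or 4 at 4 h (0.0799, 0.0885 and 0.0922) and with DESeq2 (0.263). The difference between the Acvrl1 responses of CIS KO and WT cells was not called at 24 h (adjusted p = 0.165) or at 4 h (adjusted p = 0.585). In those tests of the response difference edgeR and DESeq2 called 0 of the 7 members at either time, 0 and 1 had an unadjusted p under 0.05, and 0% and 1.33% of all genes were called by edgeR. Endothelial markers summed to at most 1.48 CPM in any library. The sex-linked RNA given above differed between the same genotypes, and its part in the Acvrl1 difference was not tested.

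Acvr1 encodes ACVR1 (ALK2), a type I receptor for BMPs and activins. For WT cells it was at 6.35, 7.49, 5.03 and 6.91 CPM unstimulated, at 3.76 and 7.52 CPM after 4 h, and at 8.06, 21.6, 22.4 and 5.94 CPM after 24 h. Among CIS KO libraries it was at 2.76, 3.71, 3.93 and 5.55 CPM unstimulated, at 11.5, 19.0, 2.06 and 7.41 CPM after 4 h, and at 19.8, 20.9, 20.3 and 17.4 CPM after 24 h. Among TGFBRII KO libraries it was at 12.7, 6.03 and 7.29 CPM unstimulated, at 6.02, 15.8 and 4.57 CPM after 4 h, and at 3.56, 6.28 and 2.38 CPM after 24 h. At 24 h the CIS KO libraries lay close together and above every unstimulated one, while 2 of the 4 WT libraries stood at 21.6 and 22.4 CPM and the lowest lay inside the range of unstimulated cells.

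Acvr1 rose 4.57-fold at 24 h in CIS KO cells (2.19 ± 0.50, adjusted p = 0.00142), a call kept in all 15 alternatives that tested it. It was not tested under the filter of a mean of at least 10 counts. Within WT cells it rose 2.30-fold (1.20 ± 0.43, adjusted p = 0.0414), but the call was lost without 24 h replicate 2 (0.91, adjusted p = 0.200), without 24 h replicate 3 (0.97, adjusted p = 0.154) or without any 1 of the 4 unstimulated libraries (adjusted p from 0.0588 to 0.119). The 24 h log2 response of TGFBRII KO cells minus that of WT cells was -2.26 ± 0.73 (adjusted p = 0.0399). This difference was not called in 10 of the 21 alternatives that tested it, with adjusted p up to 0.169. The 4 h changes, 0.04 ± 0.68 for WT cells and 1.22 ± 0.60 for CIS KO cells, were not called.

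Acvr1b and Bmpr1a, the receptors of activins and of BMPs, had 0 to 3 and 0 to 7 counts per library and were not tested. Acvr1b had 32 counts over 20 of the 31 libraries, with 6, 2 and 3 counts in WT, 5, 4 and 3 in TGFBRII KO and 5, 3 and 1 in CIS KO cells in order of time. Bmpr1a had 55 counts over 21 libraries, with 10, 0 and 10 counts in WT, 3, 7 and 2 in TGFBRII KO and 7, 5 and 11 in CIS KO cells. The 0 counts in both WT libraries at 4 h put unstimulated cells at least 1.01-fold higher (floor of 3 counts over the group), so no difference was detectable at this depth.

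**Figure D5:**
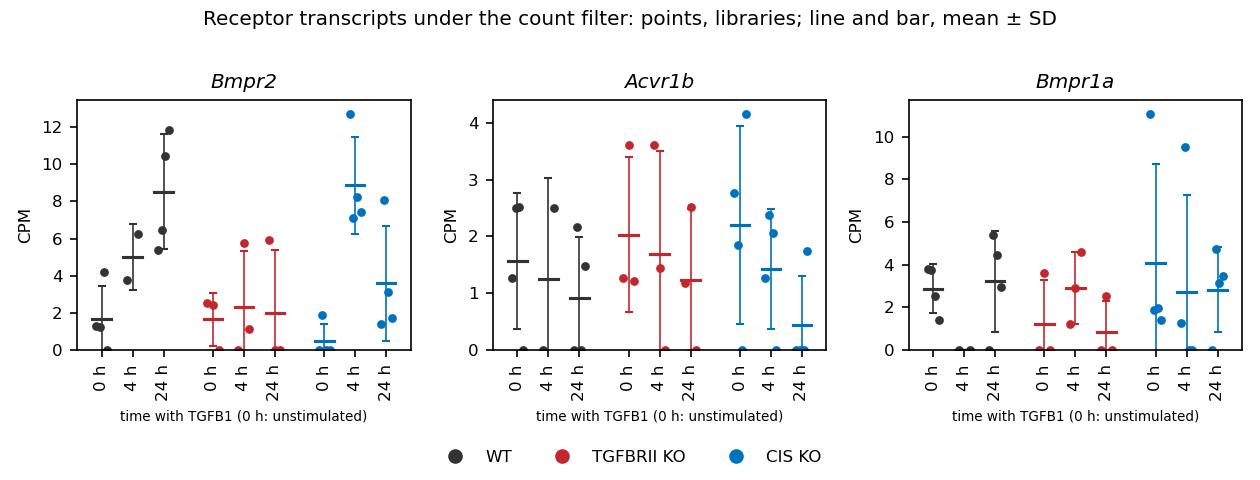
CPM of the 3 receptor transcripts that did not pass the count filter, in every library (points) with group mean ± SD. All points of Acvr1b stand for 0 to 3 counts and those of Bmpr1a for 0 to 7, and Bmpr2 has its highest group means in WT cells at 24 h (8.54 CPM) and CIS KO cells at 4 h (8.88 CPM).

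The co-receptor Tgfbr3 (chr5:107106567-107289629) encodes betaglycan, which binds TGF-β and inhibins and presents TGF-β to TGFBR2. In WT cells it was at 1.27, 0, 1.68 and 1.38 CPM unstimulated, at 0 and 5.01 CPM after 4 h, and at 6.71, 25.9, 14.9 and 19.3 CPM after 24 h. For CIS KO cells it was at 0, 0, 3.93 and 0 CPM unstimulated, at 2.55, 4.75, 4.12 and 0 CPM after 4 h, and at 5.66, 14.2, 7.80 and 10.4 CPM after 24 h. TGFBRII KO cells had 0 counts in all unstimulated and 4 h libraries and 1 count over the 3 libraries at 24 h. The 24 h libraries of WT and CIS KO cells were all above every other library of their genotype.

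Tgfbr3 passed the count filter through its 24 h WT and CIS KO groups, so its values are given as a description, without p. At 24 h in WT cells the fit put it 13.1-fold above unstimulated cells (3.71 ± 0.63). Its 52 against 4 counts gave a depth-scaled ratio of 15.1 (95% exact interval 5.56 to 57.5, counting error only). Within CIS KO cells it had 2 counts unstimulated and 36 at 24 h, a depth-scaled ratio of 11.3 (95% exact interval 2.90 to 96.6, counting error only). The 4 h changes were not called in either genotype. At 24 h TGFBRII KO cells were 42.7-fold below WT cells (7.34 to 1720, 1 against 52 counts), and WT and CIS KO cells differed by -0.73 ± 0.42, not called. The change in TGFBRII KO cells could not be estimated from 0 and 1 counts, so the difference between the responses of the 2 genotypes was not detectable.

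Set directly against WT cells at the same time, unstimulated TGFBRII KO cells had 0 of the 7 members called by edgeR and by DESeq2, 0 at an unadjusted p under 0.05, where 0.146% of all genes were called. At 4 h 3 of the 7 were called, all lower in TGFBRII KO cells (Tgfb3 by 8.53-fold, Tgfb1 by 2.77-fold and Tgfbr2 by 1.42-fold), against 11.8% of all genes. The Tgfb1 call at 4 h was lost without WT replicate 4 (-0.97, adjusted p = 0.376) and with the compared groups alone (adjusted p = 0.0518). At 24 h 5 of the 7 were called against 21.6% of all genes. Tgfb3 was 10.6-fold, Acvr1 3.55-fold and Tgfb1 2.57-fold lower in TGFBRII KO cells, Tgfbr3 was lower as given above, and Acvrl1 was higher, with 35 counts against 1 (ratio 42.6, 7.16 to 1730). The Acvr1 call was lost without WT replicate 2 (-1.53, adjusted p = 0.0537) or TGFBRII KO replicate 3 (-1.56, adjusted p = 0.0609). Tgfbr1 and Tgfbr2 were at -0.38 ± 0.15 and -0.29 ± 0.13, not called. These comparisons share the treated WT libraries with the WT responses above. For Tgfb1 and Tgfbr2 the difference between the responses of TGFBRII KO and WT cells, given above, was not called at 4 h or at 24 h.

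Over the 9 group means of log2 CPM, the 3 genes most like Tgfb3 among the 10097 compared were Ldlrad4, which encodes an inhibitor of TGF-β signalling that holds back SMAD activation (Pearson r = 0.994), Gne, the enzyme that starts sialic acid synthesis (0.993), and Pmm1, a phosphomannomutase (0.991). The nearest to Tgfbr3 were Itgae, the integrin αE (CD103) of tissue-resident lymphocytes (0.989), Pcnx (0.981) and F8a (0.974). For Tgfbr2 they were Tmem123, 1810058I24Rik and Ptk2b (0.990, 0.978 and 0.974), and for Tgfb1 they were Hivep2, Myh9 and Gcnt1 (0.958, 0.957 and 0.955). Acvrl1 was most like Gmds, Cd55 and Alox5 (0.943, 0.943 and 0.940), Acvr1 like Nhlrc1, Bmi1 and Gin1 (0.959, 0.953 and 0.943), and Tgfbr1 like H2bc21, Wbp1 and D130020L05Rik (0.979, 0.976 and 0.972). Between members the same measure was 0.845 for Tgfb1 with Tgfbr2, 0.835 for Tgfb3 with Tgfbr3 and -0.578 for Tgfb3 with Acvrl1. The group means share their libraries and depth, and these correlations are descriptions.

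The other genes of the pathway were read from 5 lists. Of 32 other superfamily ligands 1 passed the count filter (Gdf11). Of 11 other receptors and co-receptors found among the counted genes 3 were tested. In WT cells at 24 h 1 was called, where 21.1% of all genes were: Acvr1c, which encodes the type I receptor ALK7, was 1.26 ± 0.44 higher. Acvr1c was highest in the 24 h WT and CIS KO groups, which may have carried it through the filter, so it is given without p. Of 16 genes of TGF-β latency and activation 10 were tested. In WT cells 4 were called at 4 h, 2 higher and 2 lower (11.9% of all genes called), and 2 at 24 h, both lower, a share near the 21.1% of all genes called. Mmp9, a protease that can free latent TGF-β, fell by 2.37 ± 0.16, and Nrros, which anchors latent TGF-β1 on myeloid cells, fell by 0.54 ± 0.10. Mmp9 also fell in TGFBRII KO cells at 4 h, by 0.66 ± 0.14 (adjusted p = 0.0018), and unstimulated TGFBRII KO cells had 0.76 ± 0.13 more of it than WT cells. Of 13 extracellular antagonists and decoys 1 was tested (Fstl1), and its change in WT cells at 24 h was 0.44 ± 0.78 (adjusted p = 0.755).

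Of 16 regulators that act at the receptors 14 were tested, and 6 were called in WT cells at 24 h, all higher (21.1% of all genes called, 9.63% higher), at a list median of 0.34 against 0.03 over all genes tested. Pmepa1, which limits SMAD signalling, rose by 4.36 ± 0.22 from a mean of 22.8 to 469 CPM. Ldlrad4 rose by 3.34 ± 0.25, Smad7, the inhibitory SMAD, by 1.36 ± 0.15, and Smurf2, a ubiquitin ligase that SMAD7 brings to the receptors, by 0.80 ± 0.15. In CIS KO cells 6 were called at 24 h, all higher (24% of all genes called, 12.3% higher), at a median of 0.40 against 0.04 over all genes. For TGFBRII KO cells the list median at 24 h was -0.02 against 0.01 over all genes, and the changes of the 4 named regulators were -0.43 ± 0.56 for Pmepa1, -0.42 ± 0.54 for Ldlrad4, -0.09 ± 0.23 for Smad7 and -0.04 ± 0.20 for Smurf2, none called.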

How the data were processed

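RNA was sequenced from 31 libraries of sorted mouse NK cells, made with a directional kit per the labels' protocols. The values are whole-number read counts per gene that the authors deposited, for which the submitters' processing notes name mm10 and, without versions or roles, featureCounts, Subread, SAMtools, Picard, Trimmomatic and FastQC. The strand setting and the handling of duplicate reads are not stated. Annotated genes overlap Tgfbr1 and Tgfbr2 (long non-coding RNAs), Tgfbr3 (a pseudogene), Acvr1 (Upp2) and Acvr1b (a microRNA), so reads there may be shared or left out.

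The 10 members, the gene lists and the rule for named genes (all members, and up to 4 genes called with the smallest p in WT cells at 24 h from each pathway list) were chosen with earlier results of these data known. Of 27179 genes, 9782 had 0 counts throughout. RefSeq (GRCm38.p6) gave symbols for 25275, and identifiers without one held 0.958% of counts. Counts were fitted with edgeR 4.0.16 in R 4.3.3: filterByExpr on the 9 groups (10275 genes left), TMM scaling and 1 quasi-likelihood fit of all 31 libraries, and p-values were adjusted by Benjamini-Hochberg across the tested genes. All adjusted p-values come from this test unless an alternative is named. SEs are the absolute log2 fold change divided by the square root of F. CPM values use TMM-scaled totals, and levels per kilobase use GENCODE M21 exon lengths. Each length is the union of all annotated exons of the gene, not that of a single transcript. Where a group had 1 to 3 counts, and for Bmpr2 and Tgfbr3 in WT cells, ratios of summed counts have exact 95% intervals. Groups at 0 were set at a floor of 3 counts. Both cover counting error only. Genes like a member were ranked by Pearson r over group means, among tested genes that reached 5 CPM in a group.

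Totals of 297561 to 1403005 counts limit transcripts below a few CPM. Alternatives were other scalings, filters, DESeq2 1.42.0, a fit of the compared groups alone, a depth covariate, a replicate block and leaving out each library. The Tgfb3 share of the ligand transcripts, its two-sided exact permutation test and its alternatives were added after seeing the data. The edgeR test was run on simulated counts with changes placed only in genes above the lowest counts. That check does not cover members with few counts per group. Sex-linked RNA differed between the genotypes, and its part in the genotype comparisons was not tested.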

Additional observations from a re-analysis of the deposited data

Results flagged for a closer look

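In groups of 4 libraries, the highest library of a member stood apart from the other 3 in 7 of 50 groups examined, where chance gives about 1 in 20 for continuous values, a rate that does not hold for groups of 0 counts and a single count. Of these, 6 rest on 1 to 4 counts in the library named. Acvr1b was at 1.741 CPM in CIS KO 24 h replicate 4 with the other 3 at 0. Acvrl1 was at 1.079 CPM in WT 24 h replicate 2 with the other 3 at 0. Bmpr2 was at 1.855 CPM in unstimulated CIS KO replicate 2 with the other 3 at 0. Tgfbr3 was at 3.927 CPM in unstimulated CIS KO replicate 3 with the other 3 at 0. Bmpr1a was at 11.05 CPM in unstimulated CIS KO replicate 1 and at 9.509 CPM in CIS KO 4 h replicate 2, 4 counts each, with the other 3 libraries at 0 to 1 count. Tgfbr1 was at 84.05 CPM in CIS KO 4 h replicate 1, with the other 3 between 64.2 and 66.7 CPM.

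The test of the difference between the responses of TGFBRII KO and WT cells (edgeR, TGFBRII KO minus WT, log2) was passed by 3 members. The Tgfb3 response differed by -3.091 at 4 h and by -3.403 at 24 h. For Acvrl1 the fitted difference at 24 h was 4.578, a value that depends on the prior count because WT cells had 1 count there. The Acvr1 response differed by -2.264 at 24 h. The Acvr1 difference was no longer called without unstimulated WT replicate 1, 3 or 4, WT 24 h replicate 2 or 3, unstimulated TGFBRII KO replicate 1 or 3, or TGFBRII KO 24 h replicate 1 or 3, left out 1 at a time, where it lay between -2.37 and -1.90 (edgeR, adjusted p from 0.0503 to 0.169). DESeq2 gave -2.30 (adjusted p = 0.0680).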

How the results depend on the processing

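No member changed direction where it was called: of 543 values of the 35 called member results under the alternatives, 486 stayed called and 57 were no longer called, and 30 values of the 98 results not called passed the threshold. Among settings other than leaving out a library, smaller changes gave as few as 2 members called for WT at 4 h. They gave as many as 7 for WT at 24 h, 3 for CIS KO at 4 h and 4 for CIS KO from 4 h to 24 h. For TGFBRII KO against WT at 24 h they gave as many as 7. The larger changes in the number of members called, with those of DESeq2, were as follows. Only 4 members reach a mean of at least 10 counts, and under that filter WT at 24 h gave 3, CIS KO at 24 h gave 2, TGFBRII KO against WT at 24 h gave 2, CIS KO against WT gave 0 at 4 h and 0 at 24 h, and the difference between the 24 h responses of TGFBRII KO and WT cells gave 1. Without a filter, TGFBRII KO at 4 h gave 1, unstimulated CIS KO against WT 2 and the difference of 4 h responses between TGFBRII KO and WT 2. Scaling by library size alone gave 2 for unstimulated CIS KO against WT and moved the median of all genes by 0.101 at most, and a depth covariate gave 1 for TGFBRII KO at 4 h. Fits of the compared groups alone gave 0 for WT from 4 h to 24 h, 1 for TGFBRII KO against WT at 4 h, 3 for unstimulated CIS KO against WT and 0 for CIS KO against WT at 4 h. DESeq2 gave 0 for WT from 4 h to 24 h, 0 for unstimulated CIS KO against WT, where Acvrl1 had no adjusted p, and 0 for CIS KO against WT at 4 h, and it called 4 of the 6 members reported for WT at 24 h, 4 of 5 for CIS KO at 24 h and 2 of 3 for the difference of 24 h responses between TGFBRII KO and WT. The cause of these shifts was not tested.

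The replicate block gave 1 for TGFBRII KO at 4 h, 2 for unstimulated CIS KO against WT and 0 for CIS KO against WT at 4 h. The numbers were not shown to pair the libraries: of 29 same-numbered pairs within a genotype 7 had a correlation above 0.1, with a range of -0.388 to 0.25.

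Leaving out 1 library at a time gave 1 to 2 members for unstimulated CIS KO against WT, 0 to 1 for CIS KO against WT at 4 h, 1 to 2 for the difference of 4 h responses between TGFBRII KO and WT, 0 to 2 for WT from 4 h to 24 h, 1 to 3 for TGFBRII KO against WT at 4 h, 0 to 1 for TGFBRII KO at 4 h and from 4 h to 24 h, and 3 to 5 for CIS KO from 4 h to 24 h. For WT at 24 h it gave 4 to 5, below the 6 reported in every such fit. Leaving out a library gave 4 to 5 for CIS KO at 24 h and 4 to 7 for TGFBRII KO against WT at 24 h. For the difference of 24 h responses between TGFBRII KO and WT it gave 2 to 3. With WT at 4 h down to 1 library, that library is assumed to vary like the other groups. Over all genes the counts of calls moved more widely. For unstimulated CIS KO against WT the 632 calls became 73 with a depth covariate, 1197 without a filter and 54 to 1123 on leaving out a library, and for WT at 4 h the 1226 calls became 662 with the block and 604 to 1294 on leaving out a library. For TGFBRII KO at 24 h the 2 calls became 220 in a fit of the compared groups alone, for TGFBRII KO against unstimulated WT the 15 became 173 without a filter, and for TGFBRII KO at 4 h the 824 became 1360 with a depth covariate and 400 to 574 on leaving out a library. Lowest and highest counts over the other settings, again for all genes, were 201 and 1028 for WT from 4 h to 24 h (778 reported), 483 and 1433 for TGFBRII KO from 4 h to 24 h (839), 707 and 1736 for CIS KO from 4 h to 24 h (1587), and 1547 and 2565 for CIS KO at 24 h (2469). Between genotypes they were 752 and 1366 for TGFBRII KO against WT at 4 h (1212), 11 and 81 for CIS KO against WT at 4 h (28), and 76 and 603 at 24 h (336). For the differences between responses they were 485 and 998 for TGFBRII KO and WT at 4 h (778), 0 and 68 for CIS KO and WT at 4 h (0), and 57 and 335 at 24 h (137).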

Other observations

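Outside the 10 members, 3 genes of the superfamily that were picked after their values were seen had calls. Acvr1c, which encodes the type I receptor ALK7, had group means of 5.27, 5.01 and 12.8 CPM in WT, 4.54, 4.89 and 3.98 CPM in TGFBRII KO and 3.01, 2.17 and 14.7 CPM in CIS KO cells in order of time. Acvr1c rose at 24 h by 1.26 ± 0.44 (log2 ± SE) in WT cells and by 2.20 ± 0.53 in CIS KO cells. It was lower in TGFBRII KO than in WT cells at 24 h (-1.66 ± 0.52). The 24 h WT and CIS KO groups, where it was highest, may have carried Acvr1c through the count filter. Its values are therefore given as a description, without p. Acvr2a, which encodes a type II receptor for activins, had 33.3 CPM in unstimulated CIS KO cells, 68.9 CPM at 4 h and 52.3 CPM at 24 h, and rose by 1.01 ± 0.21 and 0.67 ± 0.20 (adjusted p = 0.000585 and 0.0136). In TGFBRII KO cells its change at 4 h was 0.69 ± 0.23 (adjusted p = 0.0549, not called). In WT cells Acvr2a was not called at 4 h or at 24 h. The difference between its responses in CIS KO and WT cells was not called at either time. Gdf11, a ligand of the activin receptors, rose by 2.17 ± 0.73 from 4 h to 24 h in CIS KO cells (adjusted p = 0.0447), from 2 to 17 counts over 4 libraries, so that the fitted value depends on the prior count. Tgfb2, the third TGF-β isoform, had 0 to 6 counts per group and was not tested.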
